A study of Mus musculus with 32 samples.

Results

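The Igkv9 family of the mouse Igκ locus has 4 members annotated as functional genes, Igkv9-120, Igkv9-123, Igkv9-124 and Igkv9-129, which were chosen by name as 4 of the 112 Vκ segments counted. RNA of rearranged Igκ was sequenced from 5 pre-B-cell clones (3, 4, 8, B52 and E9-3) and a pre-B-cell pool of female B6/Cast F1 mice. These mice carry 1 C57BL/6 (B6) and 1 Mus musculus castaneus (Cast) chromosome, so that reads covering a sequence difference could be assigned to an allele. Each clone was grown from a single cell by limiting dilution and cultured for 48 h without IL-7, a cytokine whose removal induces rearrangement, and clone 4 was also followed over 12, 24, 36 and 48 h without it. The labels place the pool with the 48 h libraries, but whether and for how long IL-7 was withdrawn from it is not stated in the methods. There was 1 library per clone and time in each table, so that clone 4 at 48 h had 2, with 34291 to 165679 reads in the clones, 320951 in the pool and 1174 to 10958 in the time course. The tables hold Vκ segments only, so that the cell type could not be checked against other markers.

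A Vκ segment is a gene piece that is joined to a Jκ segment by the RAG recombinase to make the variable part of an antibody light chain. RAG recognises a recombination signal at the 3′ end of the segment, made of a heptamer, a spacer and a nonamer. In the κ locus, segments on the strand of the Jκ segments join by deletion of the DNA between them, whereas segments on the opposite strand join by inversion. A promoter with an octamer motif, bound by Oct factors, drives transcription of each segment before and after joining. In bulk RNA, fewer cells with a given joining and less RNA per such cell cannot be told apart, and the reads count joined RNA and not joining events.

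The recombination signals are shown first because they are the sites of cutting and are nearly the same in the 4 segments. On chromosome 6 of mm10, in the GENCODE M21 annotation, Igkv9-129 was at chr6:67839793-67840266 on the plus strand, Igkv9-124 at chr6:67942074-67942540 and Igkv9-123 at chr6:67954228-67954714 on the minus strand, and Igkv9-120 at chr6:68049983-68050456 on the plus strand. The family thus spanned 210.664 kb, with 11.687 kb between Igkv9-124 and Igkv9-123, and the Igkj segments and Igkc (chr6:70726435-70726966) were on the plus strand, with Igkc 2676 to 2886 kb away. Each line below gives the last 20 bases of the V exon and the 28 bases of the signal directly after it, 5′ to 3′ on the strand of the gene in the B6 reference, with the heptamer and the nonamer in capitals.
Igkv9-120: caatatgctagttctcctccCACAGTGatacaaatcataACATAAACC
Igkv9-123: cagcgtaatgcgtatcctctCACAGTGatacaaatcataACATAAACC
Igkv9-124: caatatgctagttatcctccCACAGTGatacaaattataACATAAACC
Igkv9-129: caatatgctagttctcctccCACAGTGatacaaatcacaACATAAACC

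These stretches were read at chr6:68050437-68050484, chr6:67954200-67954247, chr6:67942046-67942093 and chr6:67840247-67840294, in the order of the lines. All 4 signals had the heptamer CACAGTG, as had 85 of 98 functional segments (86.7%), and 8 of the 9 bases of the consensus nonamer ACAAAAACC. Counted from 1 at the first base of the heptamer, each signal differed from the consensus by A23T, the consensus base being written first. The resulting nonamer, ACATAAACC, was found in 23 of the 98 functional segments (23.5%), and at least 8 of 9 matching bases in 80 (81.6%). The whole signal was identical in Igkv9-120 and Igkv9-123 and in no other functional segment of the 98, while Igkv9-124 and Igkv9-129 each differed from it by 1 base in the spacer. The exon ends were less alike, as Igkv9-123 differed from Igkv9-120 at 10 of the 20 bases.

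The promoters are shown because the reads depend on transcription. The octamer ATTTGCAT, in capitals below, began 91 bases before the start codon in each of the 4 segments, and was found, searched on both strands, within 250 bases before the annotated start of 70 of 98 functional segments (71.4%). The 60 bases around it were as follows.
Igkv9-120: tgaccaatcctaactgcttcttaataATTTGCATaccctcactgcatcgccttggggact
Igkv9-123: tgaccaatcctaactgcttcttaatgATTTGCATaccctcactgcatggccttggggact
Igkv9-124: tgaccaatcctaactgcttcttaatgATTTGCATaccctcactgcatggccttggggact
Igkv9-129: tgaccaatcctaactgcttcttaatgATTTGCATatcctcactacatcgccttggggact

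Igkv9-123 and Igkv9-124 were identical over these 60 bases, and the others differed from them by 2 or 3 bases. Over the 298 bases of the V exon, Igkv9-120 and Igkv9-124 were 96.0% identical, with 12 differences, and Igkv9-129 was 92.3% and 92.95% identical to them. Igkv9-123 stood apart, with 88.1% to 89.5% identity to the other 3. The closest counted segments outside Igkv9 reached 81.8% to 83.2%. Reads too short to cover a difference could be shared among Igkv9-120, Igkv9-124 and Igkv9-129, and how the counting treated them is not given in the sources used here. The Cast sequences of the segments were not analysed here.

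The family made up 4.09% of the reads of the pool, and 3.12%, 4.02%, 4.69%, 1.63% and 3.16% of the libraries of clones 3, 4, 8, B52 and E9-3. Its members were read very unequally. Igkv9-120 gave 50.3% to 68.8% of the family's reads in these 6 libraries and was the most read member in each. Igkv9-123, with the same signal as Igkv9-120, was the least read member in the pool and 4 of the 5 clones. In the pool, Igkv9-120 had 75.0 times the reads of Igkv9-123, and in the clones the ratio ranged from 2.41 in clone E9-3 to 259 in clone 8.

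**Figure D1:**
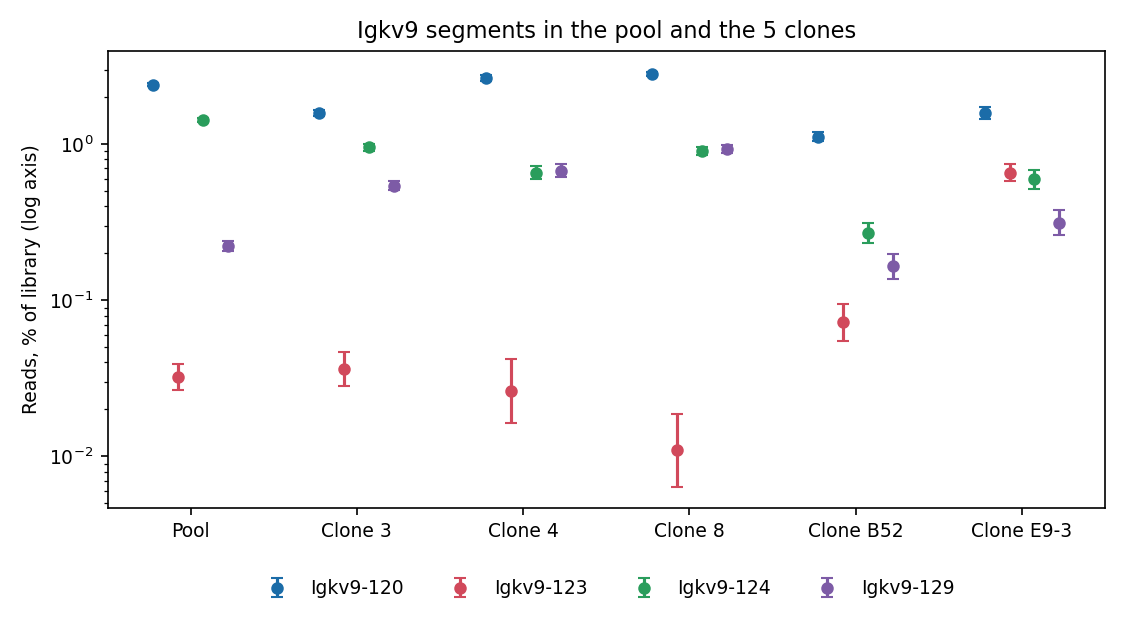
Percent of library of the 4 Igkv9 segments (colours) in the pool and the 5 clones, on a log axis, with 95% Wilson intervals that cover counting error only. Igkv9-120 is on top in each library, and Igkv9-123 is at the bottom except in clone E9-3, where it rises to 0.659%.

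Igkv9-120 was the 13th most read of all segments in the pool, with 2.41% of the library. It accounted for 1.58%, 2.66%, 2.83%, 1.12% and 1.59% of clones 3, 4, 8, B52 and E9-3 (mean 1.96% ± 0.747, SD, n = 5 clones). In order of level, the intervals of clones 8 and 4 overlapped, as did those of clones E9-3 and 3, with the pool between these pairs and clone B52 lowest. The highest clone was 2.52-fold above the lowest, against a median of 5.73-fold over 99 segments read in every clone.

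Igkv9-123 was read rarely except in 1 clone. It took 0.0321% of the pool and 0.0362%, 0.0263%, 0.0109% and 0.0723% of clones 3, 4, 8 and B52, which is 13 to 60 reads in each of these clones. In clone E9-3 it had 226 reads, or 0.659% of the library (95% Wilson interval 0.579% to 0.750%), 60.3-fold above clone 8. Only 1 of the 99 segments read in every clone had a larger fold between its highest and lowest clone. The difference was on the B6 allele, since Igkv9-123 made up 1.18% of the B6 reads of clone E9-3 and 0.00589% to 0.0835% in the other clones. Of the Cast reads it made up 0.0504% in clone E9-3, which lay within the range of 0.0181% to 0.0680% in the other clones.

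Igkv9-124 was higher in the pool than in any clone. It took 1.43% of the pool (95% Wilson interval 1.39% to 1.47%), and 0.958%, 0.657%, 0.910%, 0.271% and 0.595% of clones 3, 4, 8, B52 and E9-3 (mean 0.678% ± 0.276, SD, n = 5 clones). Clones 3 and 8 could not be told apart by their intervals, nor could clones 4 and E9-3. No interval of a clone reached that of the pool. These intervals leave out the spread between libraries, which for Igkv9-124 was 1.85-fold in clone 4 at 48 h (0.657% and 0.356%), so that they do not decide whether the pool was higher.

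Igkv9-129, the member farthest from the Jκ segments, had 0.935%, 0.677%, 0.543% and 0.315% of the reads of clones 8, 4, 3 and E9-3, then 0.222% of the pool and 0.165% of clone B52. No 2 neighbours in this order had overlapping intervals. The pool was thus below 4 of the 5 clones (mean 0.527% ± 0.302, SD, n = 5), the opposite order to Igkv9-124. In clones 4 and 8 of the 48 h table Igkv9-129 and Igkv9-124 were read at like levels, and in the pool Igkv9-124 had 4595 reads and Igkv9-129 had 712. In the second library of clone 4 at 48 h the levels were not alike, with 0.894% for Igkv9-129 and 0.356% for Igkv9-124.

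The percent of library differed between the 5 clones for all 4 members in chi-square tests of the reads, which compare libraries and not clones, but so it did for 100% of the 104 segments tested. The excess variation, the mean chi-square over 100 segments between the 2 libraries of clone 4 at 48 h, where counting error alone would give about 1, was 33.9 for the percent of library and 15.03 for the B6 share. With the statistic divided by it, 72.1% of the segments remained called, with all 4 members among them (largest Benjamini-Hochberg adjusted p = 0.0449, Igkv9-124). The second clone 4 library had 10958 reads, fewer than any clone library of the 48 h table (34291 to 165679). A chi-square in excess of counting error grows with depth, so that calls kept after this division may be too lenient. These counts of members are near the background and are no result about the family.

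The members differed in the allele from which they were read, with Igkv9-124 mostly on Cast, Igkv9-120 on both, Igkv9-129 mostly on B6 and Igkv9-123 on either. Of all reads, the B6 share was 57.4% in the pool and 51.2%, 71.8%, 62.9%, 65.8% and 53.7% in clones 3, 4, 8, B52 and E9-3. The family as a whole had B6 shares of 48.2% in the pool and 29.1%, 48%, 48.8%, 54.2% and 52.1% in clones 3, 4, 8, B52 and E9-3, each below the share of its library. In the second library of clone 4 at 48 h, that of the time course, it was 71.5% against 76.7% for all reads. Without Igkv9-124, the family's share was above that of the library in the pool (62.2%) and clone E9-3 (60.9%). It was also above it in the second library of clone 4 (79.3%). In clones 3, 4, 8 and B52 of the 48 h table it was below it (40%, 57.2%, 58.9% and 62.5%).

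**Figure D2:**
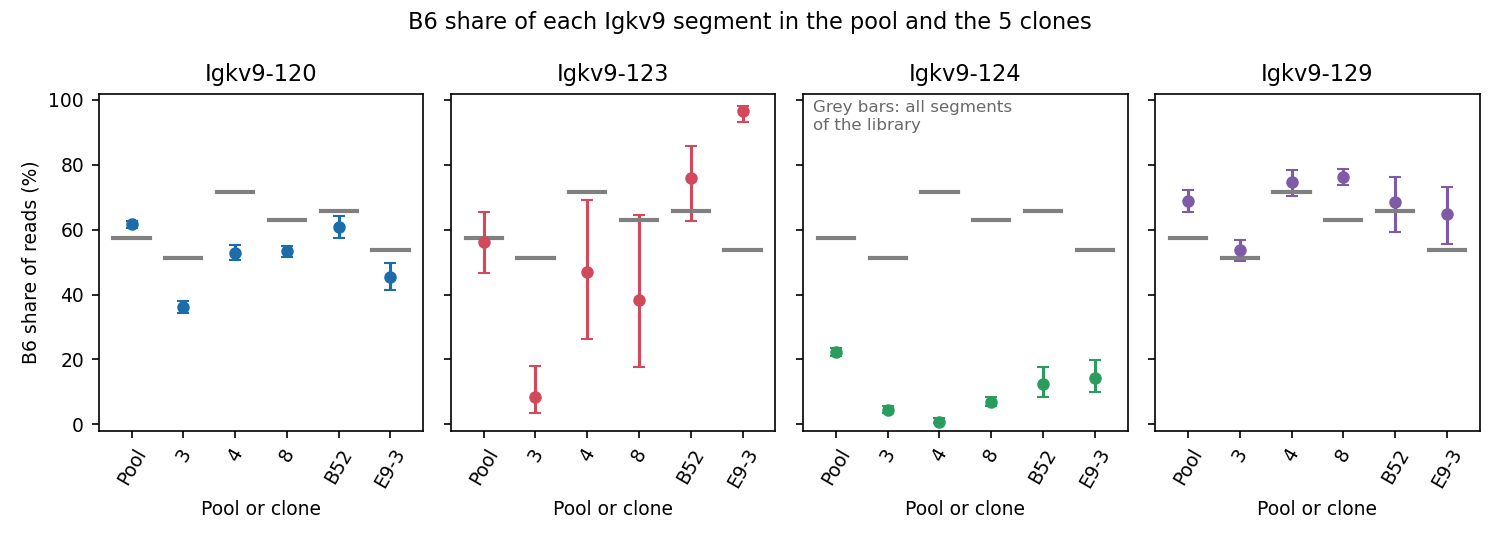
B6 share of the reads of each Igkv9 segment (points, 95% Wilson intervals) in the pool and clones 3, 4, 8, B52 and E9-3, with the B6 share of all reads of the library as grey bars. Igkv9-124 stays at or below 22.2% in each library, Igkv9-129 lies above the bar in each, and Igkv9-123 runs from 8.33% to 96.5%. The interval of Igkv9-129 covers the bar in clones 3, 4 and B52.

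Igkv9-124 was read mostly from the Cast allele. The pool held 1018 B6 reads of it and 3577 Cast reads. The clones, taken as 3, 4, 8, B52 and E9-3, held 71, 3, 74, 23 and 29 B6 reads against 1516, 422, 1009, 164 and 175 Cast reads. The B6 share was 22.2% in the pool and 4.47%, 0.706%, 6.83%, 12.3% and 14.2% in the clones in the same order (mean 7.71% ± 5.56, SD, n = 5). Over 80% of its reads were thus on Cast in all 5 clones, but not in the pool. This held for 5 of the 93 segments with at least 10 reads in every clone (5.38%), the others being Igkv2-137, Igkv11-106, Igkv12-40 and Igkv8-16, which were named after their values were seen. In the pool, 44.6% of 101 segments had over 80% of reads on 1 allele, and none of the 4 members did.

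The allele difference was tested over the 5 clones with edgeR, with clone as a block and each allele scaled to its own reads and a TMM factor. On the log2 scale, 0 then means about the same part of the B6 as of the Cast reads. Without that factor 0 means exactly the same part, and the log2 difference of Igkv9-124 was -4.55. Igkv9-124 was lower on B6 by a log2 difference of -4.43 (edgeR quasi-likelihood test, adjusted p = 0.00632), and lay on the Cast side in 5 of 5 clones. Of 94 segments tested, 28.7% were called higher on B6 and 17% higher on Cast, and Igkv9-124 was the only member called. The median log2 difference over the 94 segments was 0.70. The log2 ratio per clone was -4.49, -8.48, -4.53, -3.78 and -2.81 for clones 3, 4, 8, B52 and E9-3 (mean -4.82 ± 2.16, SD), and -2.24 in the pool. The value of clone 4 rests on 3 B6 reads. On Cast, Igkv9-124 took 2.62% of the reads of the pool and 0.693% to 2.31% in the clones, and on B6 it took 0.553% of the pool and 0.00646% to 0.158% in the clones.

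**Figure D3:**
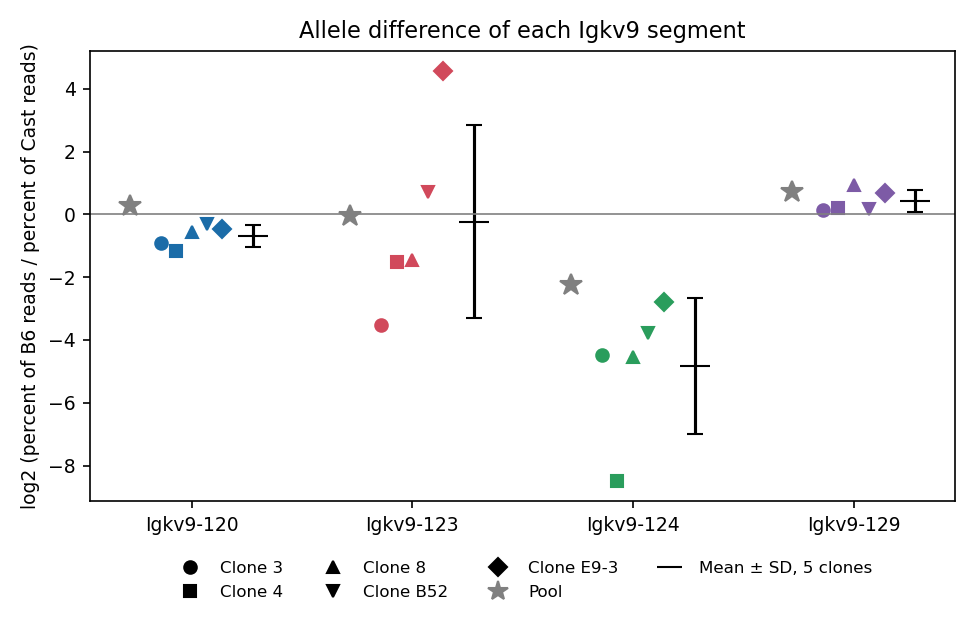
Log2 ratio of the percent of B6 reads to the percent of Cast reads for each Igkv9 segment, in the 5 clones (symbols), in the pool (stars) and as the mean ± SD over the clones. Igkv9-124 is below 0 in each library, Igkv9-123 spans from -3.53 to 4.56, and the clones of Igkv9-120 and Igkv9-129 stay near 0 on opposite sides.

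Igkv9-120, which differs from Igkv9-124 at 12 of the 298 bases of its exon, was read from both alleles. The pool held 4758 B6 and 2966 Cast reads of it. The clones in the above order held 946, 910, 1795, 471 and 247 B6 reads against 1680, 810, 1573, 304 and 297 Cast reads. The B6 shares of 61.6% in the pool and 36.02%, 52.9%, 53.3%, 60.8% and 45.4% in the clones (mean 49.7% ± 9.37, SD, n = 5) had a range of 24.7 points over the clones, against a median range of 27.5 points over 104 segments. The share was below that of the library in 5 of 5 clones of the 48 h table and above it in the pool, and also above it in the second library of clone 4 at 48 h (79.5% against 76.7%). The fitted log2 difference of -0.60 was not called (edgeR adjusted p = 0.207), with a mean log2 ratio of -0.69 ± 0.35 (SD). It was -0.02 with both alleles scaled to the library total and -0.996 without clone E9-3, the ends of its range over 11 alternatives, and was called in none of them.

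Igkv9-129 lay on the other side. It had 491 B6 and 221 Cast reads in the pool, and in the clones 483, 327, 849, 78 and 70 B6 reads against 416, 111, 264, 36 and 38 Cast reads. B6 shares of 69.0% in the pool and 53.7%, 74.7%, 76.3%, 68.4% and 64.8% in the clones (mean 67.6% ± 9.03, SD, n = 5) were above the library in each of the 6. The intervals covered the share of the library in clone 3 (50.5% to 57.0%), clone 4 (70.4% to 78.5%) and clone B52 (59.4% to 76.2%). At 36 h of the time course its share was 75%, below the 76.2% of all reads. The log2 difference over the clones was 0.51 (edgeR adjusted p = 0.223), below the median of 0.70 over the 94 segments, and was not called. It was 0.11 without clone E9-3, 0.24 without clone 3, 0.20 with all segments kept and 1.09 with both alleles scaled to the library total (edgeR adjusted p = 0.0647).

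Igkv9-123 had no constant allele. It had 58 B6 and 45 Cast reads in the pool, and in clones 3, 4, 8, B52 and E9-3 5, 8, 5, 38 and 218 B6 reads against 55, 9, 8, 12 and 8 Cast reads. Its B6 share was therefore 56.3% in the pool and 8.33%, 47.1%, 38.5%, 76% and 96.5% in these clones. The range of 88.1 points over the clones was the second widest among 104 segments. Clones 3 and E9-3 were over 80% on 1 allele, which was common among all segments of these libraries. In clone 3, 18.6% of the segments tested were over 80% on Cast and 34.3% over 80% on B6. In clone E9-3 these were 10.5% on Cast and 34.7% on B6. The intervals of Igkv9-123 were wide in clone 4 (26.2% to 69.0%), clone 8 (17.7% to 64.5%) and clone B52 (62.6% to 85.7%). Those of clones 8 and B52 reach past 80% on 1 allele. The log2 difference over the clones was -0.37 (edgeR adjusted p = 0.783), and it was 0.39 with both alleles scaled to the library total.

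The B6 share differed between the clones for all 4 members in chi-square tests (Benjamini-Hochberg adjusted p from 6.18e-54 for Igkv9-120 to 6.44e-14 for Igkv9-124), as for 76.9% of 104 segments. Divided by the excess variation between both clone 4 libraries, the test called 41.3% of the segments. Igkv9-120 (adjusted p = 0.00523) and Igkv9-123 (adjusted p = 0.0166) were then called, and Igkv9-129 (adjusted p = 0.156) and Igkv9-124 (adjusted p = 0.567) were not. As for the percent of library, the calls kept may be too lenient, since 1 of both clone 4 libraries was shallower than the clone libraries compared.

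Clone 4 at 48 h was the only condition sequenced as 2 libraries, the second in the time course. Igkv9-124 had 0.706% and 0% of its reads on B6 in the 2 libraries and Igkv9-129 had 74.7% and 77.6%. Igkv9-123 had 47.1% and 90%, a move of 42.9 points on 17 and 10 reads (Fisher's exact test, adjusted p = 0.119), and 4 of the 10 pairs of clones differed by more. Igkv9-120 had a B6 share of 52.9% in the 48 h table and 79.5% in the time course, with 198 B6 and 51 Cast reads in the latter. The difference of 26.6 points for Igkv9-120 (Fisher's exact test, adjusted p = 1.98e-14) was larger than that between any 2 clones, so that the differences of Igkv9-120 between clones do not exceed the spread between libraries of 1 clone. For Igkv9-124 and Igkv9-129, 10 and 9 of the 10 pairs of clones differed by more than the 2 libraries did, but in clone 4 Igkv9-124 was near 0%, which leaves its share little room to differ. No pair of clones of either segment differed by more than 34.8 points, the 95th percentile of the difference between the 2 libraries over the 74 segments with at least 20 reads in each. Of 100 segments, 30% differed in B6 share between the 2 libraries, with Igkv9-120 as the only member called. Over these 74 segments the median difference in B6 share was 7.90 points.

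**Figure D4:**
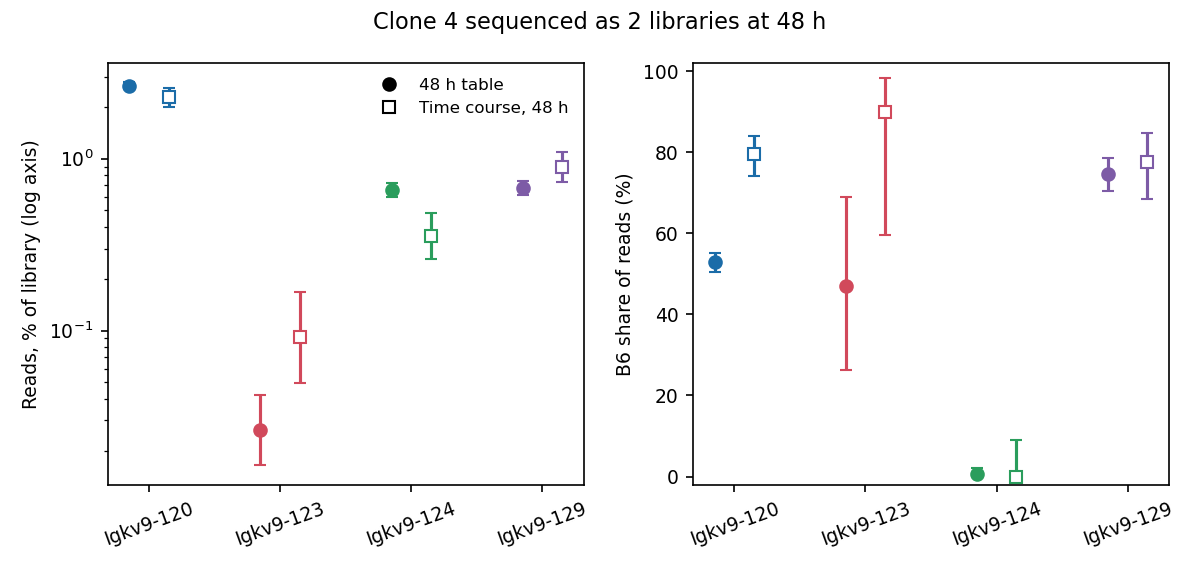
Percent of library (left, log axis) and B6 share (right) of the Igkv9 segments in both 48 h libraries of clone 4, with 95% Wilson intervals. Filled circles are the library of the 48 h table and open squares that of the time course. The B6 share of Igkv9-123 moves from 47.1% to 90%, on few reads, that of Igkv9-120 from 52.9% to 79.5%, and that of Igkv9-124 and Igkv9-129 by under 3 points.

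The levels also differed between both libraries of clone 4. Igkv9-120 took 2.66% and 2.27%, Igkv9-124 0.657% and 0.356%, Igkv9-129 0.677% and 0.894%, and Igkv9-123 0.0263% and 0.0913%, on 17 and 10 reads. All 4 members were called in Fisher's exact tests (adjusted p from 0.000216 to 0.0288), as were 65% of 100 segments. The folds of 1.17 for Igkv9-120, 1.32 for Igkv9-129, 1.85 for Igkv9-124 and 3.47 for Igkv9-123 stood beside a median of 1.55 over 74 segments. Of the 10 pairs of clones, 8 differed by more than the fold between the 2 libraries for Igkv9-120, 9 for Igkv9-129, 5 for Igkv9-123 and 4 for Igkv9-124. The 95th percentile of that fold over the 74 segments was 3.24. By more than this, 0 pairs differed for Igkv9-120, 3 for Igkv9-129, 6 for Igkv9-123 and 2 for Igkv9-124.

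In the time course of clone 4, the family held 1.32%, 3.15%, 3.81% and 3.61% of the reads at 12, 24, 36 and 48 h, from totals of 23, 37, 270 and 396 reads. Igkv9-129 was not read at 12 h, where 3 reads would be 0.173% of the library, and had 1.45% at 24 h, 1.02% at 36 h and 0.894% at 48 h. The libraries of 12 and 24 h differed (Fisher's exact test, adjusted p = 2.13e-06), as did those of 12 and 48 h (adjusted p = 2.73e-06). With the excess variation between both clone 4 libraries neither difference was called (adjusted p = 1 and 0.907). That variation was measured between deeper libraries, of 64672 and 10958 reads, so that these lost calls do not decide whether the level changed. Igkv9-120 took 0.921%, 1.45%, 2.27% and 2.27% at the 4 times, and was higher in the 48 h than in the 12 h library (Fisher's exact test, adjusted p = 0.000214, and 0.907 with the excess variation). Igkv9-124 had 7, 1, 28 and 39 reads (0.403%, 0.0852%, 0.395% and 0.356%), and Igkv9-123 had 0, 2, 9 and 10, and neither was called.

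These calls stand in a library dominated by 1 other segment. Igkv19-93 fell from 59.0% of the library at 12 h to 31.9%, 14.9% and 8.94% at 24, 36 and 48 h. Between 12 and 48 h, 64.2% of 81 segments were called (55.6% higher and 8.64% lower at 48 h), between 12 and 24 h 33.3%, between 24 and 36 h 18.5% and between 36 and 48 h 19.8%, with no member called in the last 2 pairs. With Igkv19-93 taken out of the totals, Igkv9-120 was no longer called between 12 and 48 h (adjusted p = 0.905), while Igkv9-129 was. With the excess variation between both clone 4 libraries, only 1.23% of the segments were called, with no member among them. The 12 and 24 h libraries, with 1737 and 1174 reads, were the shallowest. Calls lost there with the excess variation of deeper libraries do not decide whether levels changed.

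**Figure D5:**
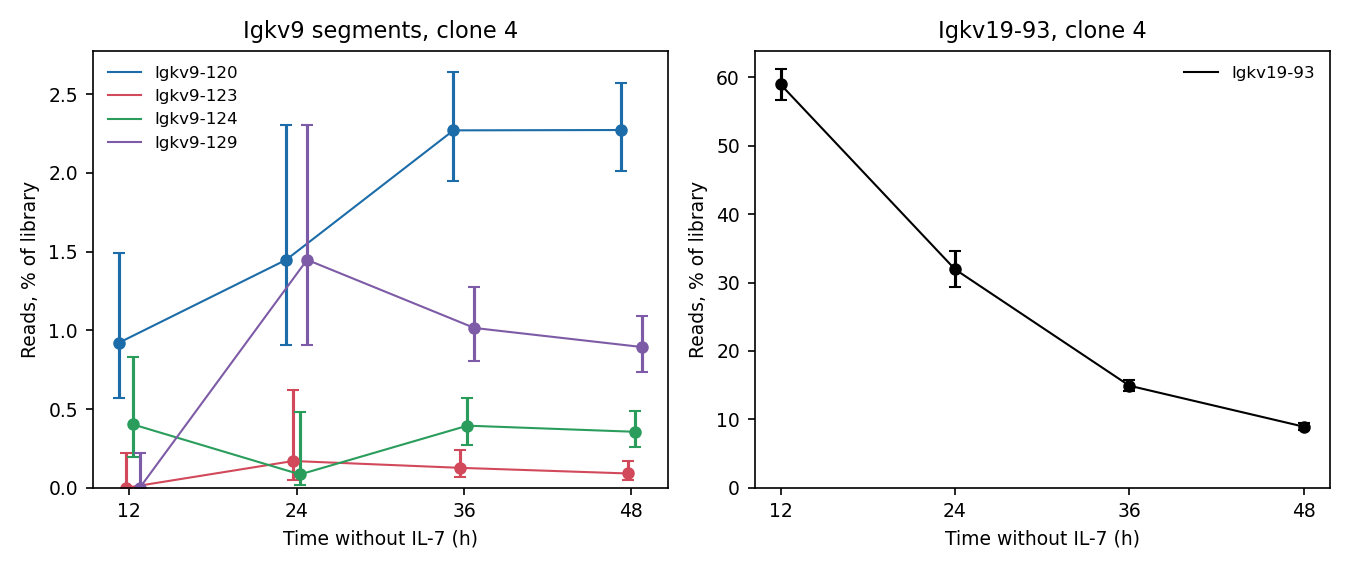
Percent of library of the 4 Igkv9 segments (left) and of Igkv19-93 (right, its own axis) over 12 to 48 h of culture of clone 4 in the absence of IL-7 (1 library at each time) with 95% Wilson intervals. Igkv9-129 goes from no read at 12 h to 1.45% at 24 h, while Igkv19-93 falls from 59.0% to 8.94%.

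By allele, Igkv9-124 had no B6 read at any time of the course, against 7, 1, 28 and 39 Cast reads. At 48 h, 3 reads are 0.0357% of the B6 reads. Igkv9-129 had 16 B6 and 1 Cast read at 24 h, 54 and 18 at 36 h and 76 and 22 at 48 h. Igkv9-120 had 13 B6 and 3 Cast reads at 12 h, 16 and 1 at 24 h, 109 and 52 at 36 h and 198 and 51 at 48 h. Of all reads, 84.2% were on B6 at 12 h and 76.7% at 48 h. At 12 h, 7 of the 10 Cast reads of the family were Igkv9-124.

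Of the 14 other counted segments numbered within 5 of a member, 10 had enough reads for the tests between clones, and 9 of them differed in B6 share, beside 76.9% of all segments tested (41.3% with the excess variation). Next to the Cast-sided Igkv9-124, Igkv11-125 had a mean B6 share of 55.0% ± 10.7 (SD, n = 5 clones) in the 48 h table. In clone 4 it had 99 B6 and 130 Cast reads there, but 0 and 62 in the second library at 48 h, where it too was read on Cast alone. Igkv1-122, between Igkv9-123 and Igkv9-120, was read mostly on Cast (mean B6 share 13.7% ± 9.99, SD, n = 5), and Igkv17-121, beside Igkv9-120, almost wholly on B6 (96.6% ± 4.67, SD, n = 5). Igkv9-128, annotated as a pseudogene, was read on Cast alone, with 17, 16, 64, 0 and 1 reads in clones 3, 4, 8, B52 and E9-3 and none in the pool. Neighbouring segments thus lay on different alleles within the same libraries.

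The levels of the members over the 6 libraries went together only in part. Pearson's r of log2(percent + 0.01) was 0.696 between Igkv9-120 and Igkv9-124, 0.673 between Igkv9-120 and Igkv9-129 and 0.383 between Igkv9-124 and Igkv9-129. For Igkv9-123 it was -0.554 with Igkv9-120, -0.373 with Igkv9-124 and -0.461 with Igkv9-129. All correlations of Igkv9-123 rest on only 17 and 13 reads of it in clones 4 and 8. The segments most like each member, among 84 or 85 with at least 20 reads in each library, came from other families. Igkv14-111 (r = 0.970), Igkv4-63 (0.928) and Igkv6-15 (0.917) were most like Igkv9-120, and Igkv12-38 (0.843), Igkv3-4 (0.785) and Igkv3-2 (0.756) most like Igkv9-123, whose own reads were under 20 in clones 4 and 8. Igkv1-117 (0.907), Igkv12-46 (0.905) and Igkv14-100 (0.897) were most like Igkv9-124, and Igkv2-116 (0.929), Igkv5-48 (0.897) and Igkv8-28 (0.844) most like Igkv9-129. These are descriptions over 6 libraries whose percents share a total.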

How the data were processed

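RNA primed from the Cκ exon was amplified by ligation-mediated PCR and sequenced. After trimming, the authors mapped the read pairs by bowtie2 onto a combined B6 and Cast genome (mm10) and used HTSeq to count them per Vκ segment and allele; the deposited values are raw read counts, without normalization or molecular identifiers. Intervals therefore cover counting error only. Tool versions are not given in the sources used here. Other assays of the series were not analysed here.

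Percents of library and B6 shares were computed with Python 3.11.15 and pandas 2.3.3, with 95% Wilson intervals and a floor of 3 reads. The allele difference was fitted with edgeR 4.0.16 (TMM, quasi-likelihood, clone as a block) in R 4.3.3, with DESeq2 1.42.0 as an alternative. Chi-square and Fisher's exact tests (SciPy 1.17.1, two-sided, at least 20 reads) compare libraries. Calls had a Benjamini-Hochberg adjusted p under 0.05 over all segments. The statistics were tested on simulated data. Sequences came from GRCm38.p6, the assembly of mm10, with GENCODE M21, in which 111 of the 112 segments were found by name. Segments named were the members, those numbered within 5 of a member, the 3 most like each member, and Igkv19-93; 4 more, over 80% on Cast in each clone as Igkv9-124, were picked once their values were known. The members and lists were chosen with earlier results of these data known.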

Additional observations from a re-analysis of the deposited data

Results flagged for a closer look

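Igkv9-123 took 0.659% of the reads in clone E9-3, far above the other 4 clones, which held 0.0109% to 0.0723%. The B6 share of the whole family was 29.1% in clone 3, below the 48% to 54.2% of the other 4 clones. The family's share in clone 4 was 48% in the 48 h table and 71.5% in the time course at 48 h, further apart than clone 3 and the nearest other clone. Both stood out by the gap to the nearest clone divided by the range (Dixon's test), among 10 groups examined, and chance flags about 1 in 20 groups.

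The B6 share differed between the clones in chi-square tests of reads with Benjamini-Hochberg adjustment for Igkv9-120 (adjusted p = 6.18e-54, 36.02% to 60.8%), Igkv9-123 (adjusted p = 1.27e-44, 8.33% to 96.5%), Igkv9-124 (adjusted p = 6.44e-14, 0.706% to 14.2%) and Igkv9-129 (adjusted p = 2.48e-26, 53.7% to 76.3%). Of 104 segments, 76.9% were called, and with the excess variation between both clone 4 libraries divided out (41.3% called) Igkv9-129 (adjusted p = 0.156) and Igkv9-124 (adjusted p = 0.567) were not. Igkv9-120 kept the call, but its B6 share differed by more between both clone 4 libraries (52.9% and 79.5%) than between any 2 clones. Except for clone 4, each clone had 1 library, so that clone and library cannot be told apart there.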

How the results depend on the processing

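Of 188 alternative values of the members' tests, 174 kept their direction and their side of the threshold, and of 60 counts of called segments 49 stayed within 1.5 times the count reported. The values of the tests between clones are ranges, the highest minus the lowest clone, which cannot change direction. For these only the side of the threshold could change. Igkv9-124 was called on the Cast side in each of the 11 alternatives (log2 -5.28 to -3.80, adjusted p 1.76e-08 to 0.0249). Each allele was scaled to its own reads; with both scaled to the library total, the median log2 difference over all segments moved from 0.70 to 1.27, the calls on the Cast side from 16 to 7 with 32 on B6 in place of 27, and Igkv9-123 from -0.37 to 0.39. With DESeq2, 40 segments were called on B6 and 22 on Cast. Without the replicate block, that is without pairing the alleles of a clone, 28 segments were called on B6 and 10 on Cast and Igkv9-123 had a log2 difference of 2.30; the block changed the call of no member. Leaving out each clone in turn gave 9 to 18 calls on Cast (9 without clone 4, 10 without clone B52) and -1.65 to 0.19 for Igkv9-123, above 0 without clone 3 (0.19) or clone 4 (0.04).

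With the excess variation, 43 of 80 calls of B6 share between clones were left, and Igkv9-124 (a range of 13.5 points) and Igkv9-129 (22.6 points) were not called; 1, 0, 0 and 0 segments were called for 12 against 48, 12 against 24, 24 against 36 and 36 against 48 h, with Igkv9-120 (1.35 points) and Igkv9-129 (0.89 points from 12 to 48 h, 1.45 points from 12 to 24 h) not called. Without Igkv19-93 in the total, 34 in place of 52 segments were called for 12 against 48 h, and the changes of Igkv9-120 were 0.251 points from 12 to 48 h, -0.116 from 12 to 24 h and -0.173 from 36 to 48 h, and -0.279 between both libraries of clone 4, not called. With the other clone 4 library at 48 h, Igkv9-124 changed by 0.254 points from 12 h in place of -0.0471. With B6 reads alone, 8 in place of 16 segments were called for 36 against 48 h. Scaling each allele to its own total moved the B6 shares of the pool to 54.3% for Igkv9-120, 48.9% (from 56.3%) for Igkv9-123, 17.4% for Igkv9-124 and 62.2% for Igkv9-129. The cause of these changes was not tested. At 12 and 24 h, with 1737 and 1174 reads, 3 reads are 0.173% and 0.256% of the library. The excess variation came from deeper libraries than these.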
